A study of Arabidopsis thaliana with 2 samples.

Results

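The genes described here encode the first enzymes of tetrapyrrole synthesis in Arabidopsis thaliana, from glutamyl-tRNA to coproporphyrinogen III, with 1 inhibitor of the pathway. They are HEMA1 (AT1G58290), HEMA2 (AT1G09940), GSA1 (AT5G63570), GSA2 (AT3G48730), FLU (AT3G14110), HEMB1 (AT1G69740), HEMC (AT5G08280), HEMD (AT2G26540), HEME1 (AT3G14930) and HEME2 (AT2G40490). They were chosen by locus identifier for their place in the pathway, with earlier results of these data known. All 10 were found among the 26743 features of the deposited table. All 10 also reached a mean of 1 RPKM (reads per kilobase of a feature per 1000000 library reads), as did 18969 features in all. RNA sequencing compared whole jmj17-1 mutant seedlings with whole wild-type (WT) seedlings, both in the Col-0 background, 7 days old and grown without sucrose in long days of 16 h light and 8 h dark. JMJ17 is a demethylase of histone H3 lysine 4, and the labels call jmj17-1 a mutant without giving the position or kind of the lesion. There was 1 library per genotype, so no difference below has a replicate check and no p-value was calculated. Every value describes these 2 libraries.

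Plants make 5-aminolevulinate, the precursor of all tetrapyrroles, from glutamate that is bound to its tRNA. Glutamyl-tRNA reductase is the first committed and most tightly regulated enzyme, and glutamate-1-semialdehyde aminotransferase completes aminolevulinate. Aminolevulinate dehydratase, porphobilinogen deaminase, uroporphyrinogen III synthase and uroporphyrinogen III decarboxylase then build and trim the ring. Chlorophyll, heme, siroheme and the phytochrome chromophore all come from this trunk. HEMA1 is the light-induced reductase gene of green tissue, whereas HEMA2 is known mainly from roots and from stress. The FLU protein binds the reductase and restrains aminolevulinate synthesis in darkness.

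HEMA1 and HEMA2 encode the same enzyme and are similar in sequence, which bears on how reads were divided between them. Over 1635 aligned transcript bases they were 80.2% identical, and their longest run of identical coding bases was 49. GSA1 and GSA2 were 83.7% identical over 1249 bases, with a longest run of 38. HEME1 and HEME2 aligned over only 237 bases, at 71.3%, with a longest run of 12. A read that lies inside such a run cannot be assigned to a single gene, and the sources used here do not give the read length. The coding windows around the longest runs are shown for the HEMA and GSA pairs, from RefSeq TAIR10.1, 5′ to 3′, with the bases that differ between the members of a pair in capitals. The HEMA1 window is chr1:21625436-21625574 on the minus strand and the HEMA2 window chr1:3238539-3238677 on the minus strand. They hold 11 differences in 139 bases.
HEMA1: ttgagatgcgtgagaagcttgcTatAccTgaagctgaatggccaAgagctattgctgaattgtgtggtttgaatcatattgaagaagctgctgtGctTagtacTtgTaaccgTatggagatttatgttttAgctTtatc
HEMA2: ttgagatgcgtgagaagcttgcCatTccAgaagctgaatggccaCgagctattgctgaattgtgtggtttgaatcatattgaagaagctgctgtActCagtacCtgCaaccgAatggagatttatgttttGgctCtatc
The GSA1 window is chr5:25452446-25452573 on the plus strand, and the GSA2 window lies within chr3:18050285-18050489 on the plus strand, where it is interrupted by an intron. They hold 13 differences in 128 bases.
GSA1: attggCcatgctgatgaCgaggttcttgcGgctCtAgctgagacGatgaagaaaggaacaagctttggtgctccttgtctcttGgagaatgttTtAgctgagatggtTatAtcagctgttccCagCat
GSA2: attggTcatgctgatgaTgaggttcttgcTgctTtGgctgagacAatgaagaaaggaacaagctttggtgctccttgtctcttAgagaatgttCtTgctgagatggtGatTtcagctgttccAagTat
Outside the longest run, the next identical stretch within the windows is 22 bases for HEMA and 11 for GSA. The HEMA stretch begins at the window edge, so it may be longer in the genes. The sources used here do not say how the authors assigned reads that match both copies.

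The libraries rested on 45403267 reads in jmj17-1 and 53890006 in WT, recovered from the deposited values themselves. For 8 of the 10 genes whole reads were recovered as well, at feature lengths between 1412 and 2287 bases. FLU and HEMC gave no whole reads, and their reads were approximated from TAIR10.1 exonic lengths. Both overlap a gene of the opposite strand, FLU by 45 exonic bases with AT3G14100 and HEMC by 129 with AT5G08270 and by 46 with the noncoding AT5G01545. Whether reads were counted by strand is unstated, so both values are uncertain to that extent. HEME1 shares 16 exonic bases with AT3G14920 on the same strand. JMJ17 itself, which checks the labels, stood at 2.90 RPKM in jmj17-1 and 5.48 in WT (fold 0.529, 95% counting interval 0.480 to 0.582). All 6 shoot and root markers examined were present in both libraries. The 2 shoot genes summed to 13164 RPKM in jmj17-1 and 14440.2 in WT, with folds of 0.973 for RBCS1A (0.969 to 0.977) and 0.851 for LHCB1.3 (0.848 to 0.855). LHCB1.3 overlaps the opposite gene NRPA2 by 108 exonic bases. The 4 root genes summed to 1546 RPKM in jmj17-1 and 1361 in WT. Among them PRP3 was higher by a log2 ratio of 0.44, at 19.9 RPKM in jmj17-1 and 14.4 in WT (fold 1.38, 1.26 to 1.51), and PYK10, which overlaps an opposite gene by 138 exonic bases, had a fold of 1.13 (1.13 to 1.14). The intervals of the root genes COBL9 and EXP7 included 1, at folds of 1.08 each, and EXP7 overlaps an opposite gene by 23 exonic bases. The 2 seed storage genes examined, CRU3 and CRA1, were lower in jmj17-1, at 0.55 and 1.70 RPKM, against 6.34 and 7.39 in WT, and the part of these tissue and seed genes in the results below was not tested.

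Of the 10 genes, HEMA1 was lower in jmj17-1 and the other 9 differed little. Change was measured on the log2 scale after adding 1 RPKM to both values, as jmj17-1 over WT, and folds are plain ratios of RPKM with exact 95% intervals that cover counting error only. None of the 10 differed by 2-fold, a size that 0.97% of all features reached, and none by 1.5-fold, which 3.44% reached. A smaller size was a ratio of 0.8 or its inverse, an absolute log2 ratio of at least 0.32, called a small difference here. HEMA1 alone reached it, in the lower direction. Of all features 11.5% showed at least a small difference, 5.69% lower and 5.77% higher, so 1 gene in 10 is close to the share among all features. The median log2 ratio of the 10 genes was 0.03, beside 0.04 for all features, and 7 of the 10 lay above 0, as did 60.5% of all features. Among the other 9 the range was -0.09 to 0.16. For 7 of those 9 the log2 ratio lay within the middle 50% of all features, which spanned -0.07 to 0.14, and HEMD and FLU lay just outside it.

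**Figure D1:**
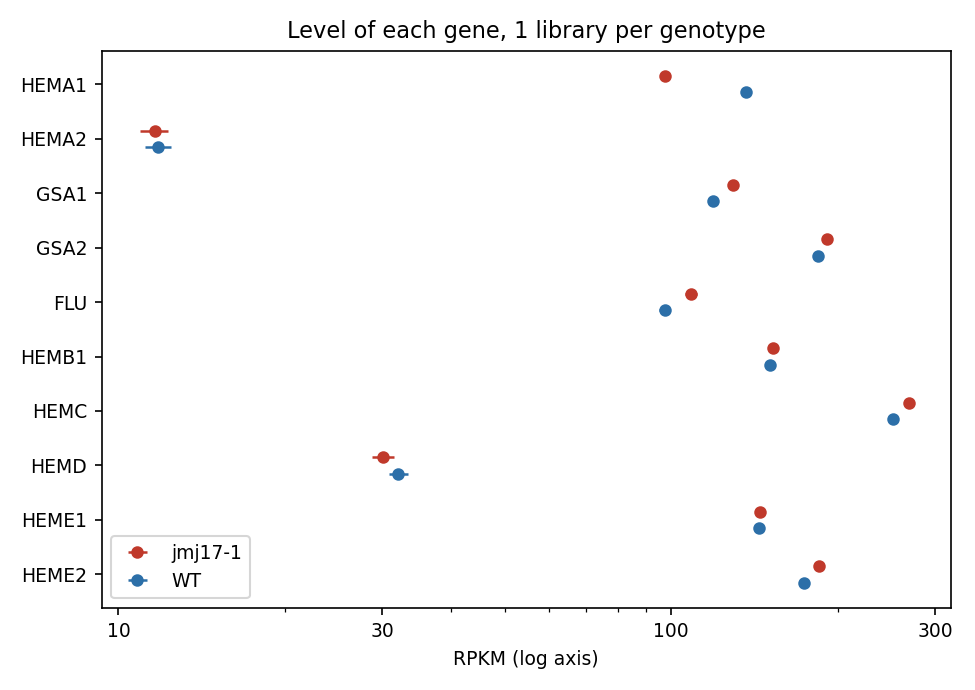
RPKM of each gene in the jmj17-1 library (red) and the WT library (blue), on a log axis, with exact Poisson 95% intervals that cover counting error only and are often narrower than the point. HEMA1 is the gene with the widest gap, at 97.4 RPKM in jmj17-1 and 137 in WT, and the points of the other genes lie close together.

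Glutamyl-tRNA reductase was the step at which the libraries differed most. HEMA1 (chr1:21623700-21626402, minus strand) stood at 97.4 RPKM in jmj17-1 and 137 in WT, from 10114 reads in jmj17-1 and 16846 in WT. The fold was 0.713, with a counting interval of 0.695 to 0.730, and the log2 ratio of -0.48 was higher than that of only 2.78% of all features. Among the 2261 features with a mean of at least 50 RPKM, a set examined after the data were seen, 6.81% were lower by at least a small difference. HEMA2 (chr1:3236908-3239554, minus strand) stood at 11.6 RPKM in jmj17-1 and 11.8 in WT, and its fold of 0.986 had an interval of 0.910 to 1.07. The HEMA1 interval lay wholly below the HEMA2 interval. HEMA1 made up 89.3% of the RPKM of the pair in jmj17-1 (88.7% to 89.9%) and 92.1% in WT (91.6% to 92.5%). Its level was 8.38 times that of HEMA2 in jmj17-1 and 11.6 times in WT, so HEMA1 was the main reductase transcript in both libraries. Beside the HEMA1 fold of 0.713, the ratio of the summed shoot markers was 0.912 and that of the summed root markers 1.14. PYK10 made up most of the root sum. Without PYK10 the root ratio was 1.26, and 1 of the 3 genes left had an interval above 1. Whether tissue make-up plays a part was not tested. The summed level of the pair was 109 RPKM in jmj17-1 and 148 in WT, a ratio of 0.734. The remaining gene of this family, HEMA3 (AT2G31250), was scarce, at 0.94 RPKM in jmj17-1 and 0.86 in WT, from 73 reads in jmj17-1 and 79 in WT. HEMA3 was 80.2% identical to HEMA2 over 1624 bases, with a longest identical coding run of 40. Whether some of its reads came from the more abundant HEMA genes was not tested.

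FLU, the inhibitor of the reductase, had the highest log2 ratio of the 10 genes. FLU (chr3:4676118-4677689, minus strand) stood at 109 RPKM in jmj17-1 and 97.2 in WT, a fold of 1.12 with an interval of 1.08 to 1.16. This is less than a small difference, and 77.4% of all features had a lower log2 ratio. The level of FLU over that of HEMA1 was 1.11 in jmj17-1 and 0.711 in WT. The order of the genes by level also differed. FLU and GSA1 stood above HEMA1 in jmj17-1 and below it in WT, and the counting intervals of HEMA1 did not overlap theirs in either library.

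Both genes of glutamate-1-semialdehyde aminotransferase, which converts the product of the reductase into aminolevulinate, were slightly higher in jmj17-1. GSA1 (chr5:25451800-25453845, plus strand) stood at 129.5 RPKM in jmj17-1 and 119 in WT, a fold of 1.09 with an interval of 1.06 to 1.12. GSA2 (chr3:18049571-18051778, plus strand) stood at 191 RPKM in jmj17-1 and 184 in WT, a fold of 1.04 with an interval of 1.02 to 1.06. Of all features 69.2% had a lower log2 ratio than GSA1 and 53.2% a lower one than GSA2. With the median of all features set to 0 the log2 ratio of GSA2 was 0.013. GSA2 was the more abundant copy in both libraries, and GSA1 made up 40.4% of the pair in jmj17-1 and 39.3% in WT. The pair summed to 321 RPKM in jmj17-1 and 303 in WT. Both libraries therefore held more aminotransferase than reductase transcript per length, 321 against 109 RPKM in jmj17-1 and 303 against 148 in WT.

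**Figure D2:**
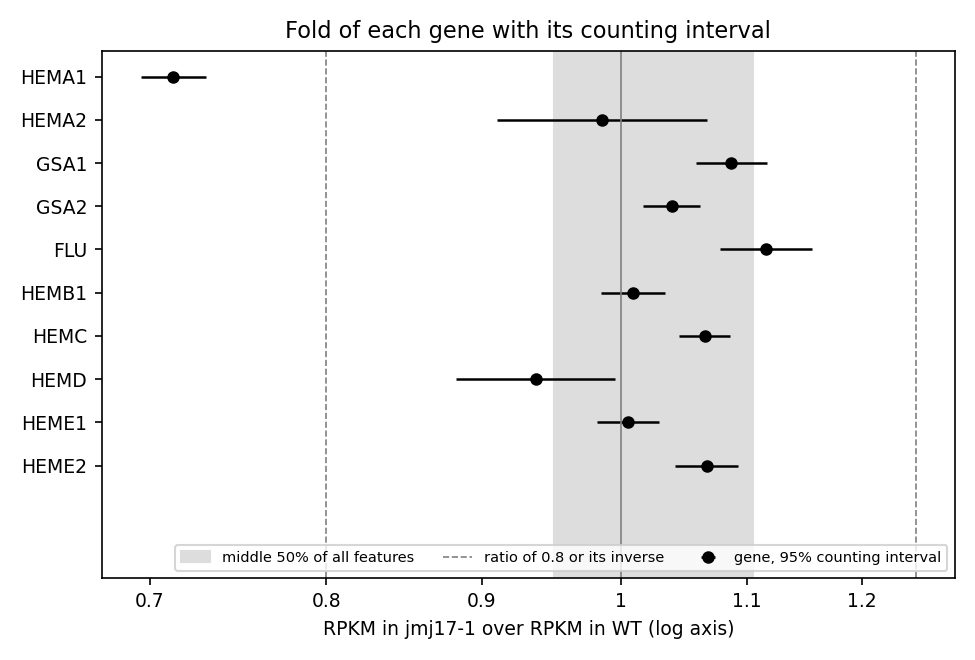
Fold of each gene, RPKM in jmj17-1 over RPKM in WT on a log axis, with 95% counting intervals. The grey band holds the middle 50% of all features on the (RPKM + 1) scale, 0.951 to 1.10, and dashed lines mark a ratio of 0.8 and its inverse. HEMA1 at 0.713 is the gene outside the dashed lines.

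None of the genes of the steps that use aminolevulinate, from HEMB1 to HEME2, showed a small difference. HEMB1 (chr1:26231620-26235043, plus strand), the aminolevulinate dehydratase gene that joins pairs of molecules into porphobilinogen, stood at 152.5 RPKM in jmj17-1 and 151 in WT. Its fold of 1.01 had an interval of 0.985 to 1.03, which includes 1. A second gene of this family, HEMB2 (AT1G44318), stood at 0.23 RPKM in jmj17-1 and 0.26 in WT, from 13 reads in jmj17-1 and 17 in WT, too few to show a difference. HEMC (chr5:2663499-2665826, minus strand), whose porphobilinogen deaminase links porphobilinogen into a linear chain, was the most abundant of the 10 genes in both libraries. HEMC stood at 269 RPKM in jmj17-1 and 252 in WT, a fold of 1.07 with an interval of 1.05 to 1.09.

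Uroporphyrinogen III synthase, which closes the ring, was the least abundant enzyme step. HEMD (chr2:11287308-11290361, minus strand) stood at 30.1 RPKM in jmj17-1 and 32.1 in WT, a fold of 0.938 with an interval of 0.883 to 0.996. The upper end of this interval lay just below 1, and the share of all features with such an interval was not calculated. Of all features 22.3% had a lower log2 ratio than HEMD. HEME1 and HEME2 encode uroporphyrinogen III decarboxylase, which takes carboxyl groups off the ring side chains. HEME1 (chr3:5020461-5023146, plus strand) stood at 145 RPKM in jmj17-1 and 144 in WT, a fold of 1.01 with an interval of 0.982 to 1.03. HEME2 (chr2:16912805-16915202, plus strand) stood at 185 RPKM in jmj17-1 and 174 in WT, a fold of 1.07 with an interval of 1.04 to 1.09. HEME2 was the more abundant of the pair in both libraries, with HEME1 at 43.9% of their sum in jmj17-1 and 45.4% in WT.

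**Figure D3:**
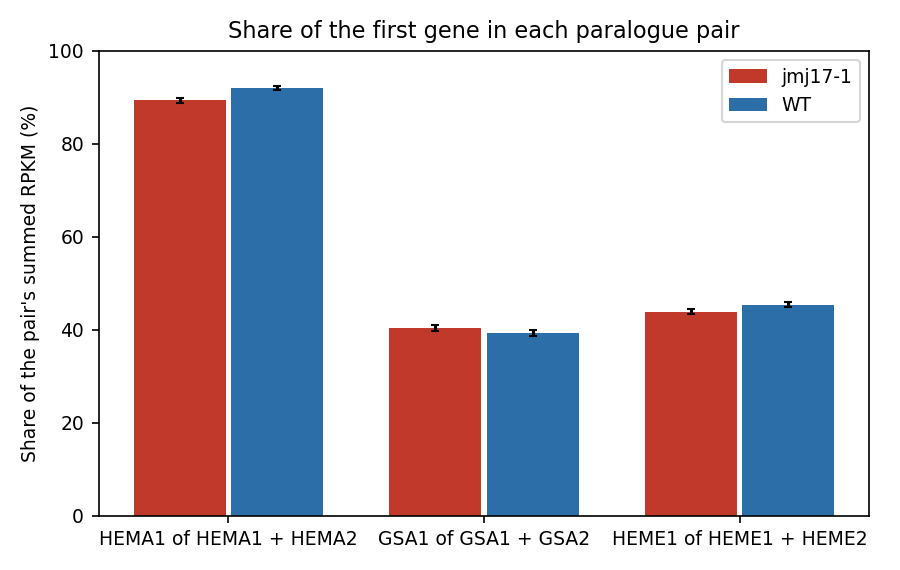
Share of the first gene in the summed RPKM of each paralogue pair, in percent, in jmj17-1 (red, left) and WT (blue, right), with 95% counting intervals. HEMA1 held 89.3% of its pair in jmj17-1 and 92.1% in WT, and the other pairs differed by less between the libraries.

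The levels of the 10 genes spanned 23.1-fold in jmj17-1, between HEMC and HEMA2, and 21.4-fold in WT. In both libraries the order by RPKM began with HEMC, GSA2, HEME2, HEMB1 and HEME1 and ended with HEMD and HEMA2. The counting intervals of GSA2 and HEME2 overlapped in jmj17-1, and those of every other pair of neighbours in either order did not. With 1 library per genotype the spread between seedlings is unknown. The 10 genes together made 1319.8 RPKM in jmj17-1 and 1302 in WT, a ratio of 1.01. HEMA1 contributed 7.38% of that sum in jmj17-1 and 10.5% in WT. The other 9 summed to 1222 RPKM in jmj17-1 and 1166 in WT, a ratio of 1.05. Ratios within a library do not depend on the scaling between libraries. HEMA1 over the sum of the other 9 was 0.0797 in jmj17-1 and 0.117 in WT, and its ratio to each of the 9 was lower in jmj17-1, by factors between 0.639 for FLU and 0.760 for HEMD.

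In the authors' deposited table of p-values HEMA1 had a Z of -2.57 and an unadjusted p of 0.0102. HEMA1 was in both of the authors' deposited short lists, those named for 0.01 and 0.05, which hold 288 and 410 genes, and none of the other 9 was in either list. In the authors' deposited table the other 9 had p-values between 0.431 for FLU and 0.972 for HEMA2. The HEMA1 p lies above 0.01, so the name of the shorter list is not an exact cutoff. CRD1, PORB and CHLP of the magnesium branch described below were also in both lists, each overlapping a gene of the opposite strand. These were abundant, at 604 to 801 RPKM in jmj17-1 and 710 to 948 in WT. Their folds of 0.845, 0.847 and 0.851 were less than a small difference. The markers LHCB1.3 and PYK10 were in both lists as well. The deposited p treats RPKM values as counts out of 1000000, so it takes no account of length, of reads or of the spread between seedlings.

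**Figure D4:**
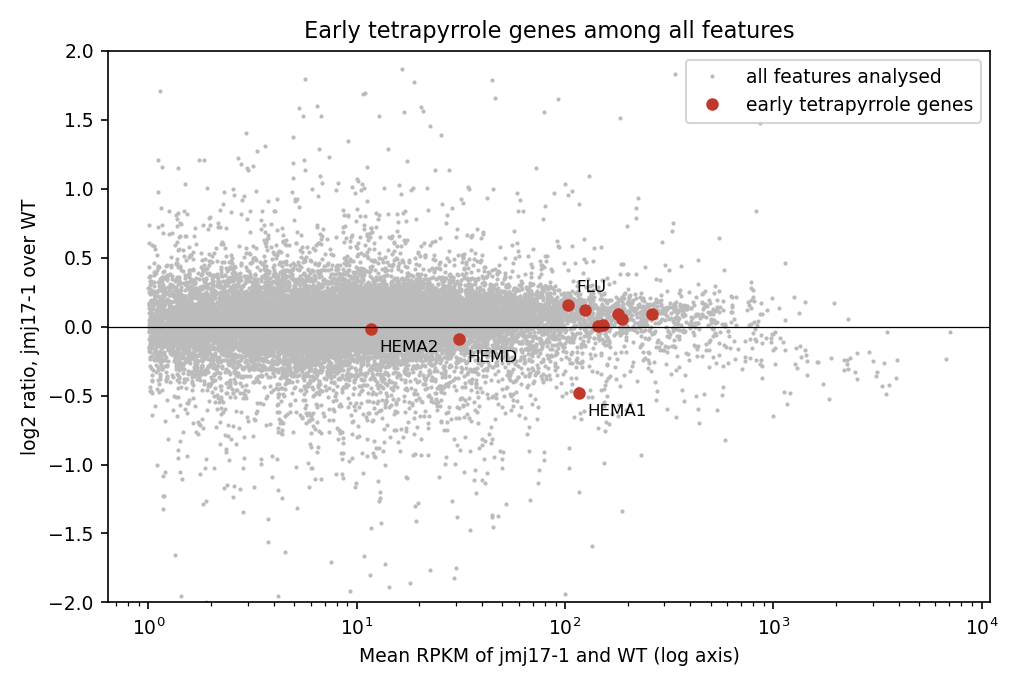
Log2 ratio of jmj17-1 over WT against the mean RPKM of both libraries (log axis) for all 18969 features analysed (grey) and the 10 genes (red), with 26 features outside the vertical range. HEMA1 lies at -0.48, and the other 9 genes lie between -0.09 and 0.16.

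The proteins and enzymes around the trunk were compared in lists, described by counts beside the shares of all features given above. These lists, and that of the transcription factors below, were written with earlier results of these data known. Of 7 genes listed around aminolevulinate synthesis, HEMA3 lay below a mean of 1 RPKM. The other 6 supply or control the reductase, and none of them showed a small difference, with a median log2 ratio of 0.02. The plastid glutamyl-tRNA synthetase gene (AT5G64050), which makes the substrate, stood at 49.7 RPKM in jmj17-1 and 42.5 in WT (fold 1.17, 1.13 to 1.22). CLPS1, an adaptor of the plastid Clp protease that degrades the reductase, stood at 49.2 RPKM in jmj17-1 and 55.2 in WT (fold 0.891, 0.839 to 0.946), and shares 60 exonic bases with an opposite gene. UPM1, whose methyltransferase draws uroporphyrinogen III into siroheme, stood at 92.8 RPKM in jmj17-1 and 81.0 in WT (fold 1.14, 1.12 to 1.17), and shares 203 exonic bases with an opposite gene.

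None of the 4 genes of the protoporphyrin steps that follow showed a small difference, and their median log2 ratio was 0.03. HEMF2, a coproporphyrinogen oxidase gene, stood at 11.2 RPKM in jmj17-1 and 13.2 in WT (fold 0.845, 0.777 to 0.920). PPOX1, a protoporphyrinogen oxidase gene that overlaps an opposite gene by 121 exonic bases, stood at 107 RPKM in jmj17-1 and 96.7 in WT (fold 1.10, 1.07 to 1.14). In the magnesium branch, which leads to chlorophyll, 2 of 15 genes were lower by at least a small difference, beside 5.69% of all features. None was higher by that size, and the median was -0.14 with 9 genes below 0. The 2 genes lower by at least a small difference were GUN4, a regulator of magnesium chelatase, and CAO, which makes chlorophyll b. GUN4 stood at 71.1 RPKM in jmj17-1 and 91.4 in WT (fold 0.778, 0.746 to 0.811) and shares 946 exonic bases with the opposite gene GCN2. CAO stood at 56.2 RPKM in jmj17-1 and 72.2 in WT (fold 0.778, 0.752 to 0.805) and shares 36 exonic bases with an opposite gene. HEMA1 had the lowest log2 ratio among the 50 genes of the trunk, the lists around it and the transcription factors that reached 1 RPKM, ahead of GUN4 and CAO.

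**Figure D5:**
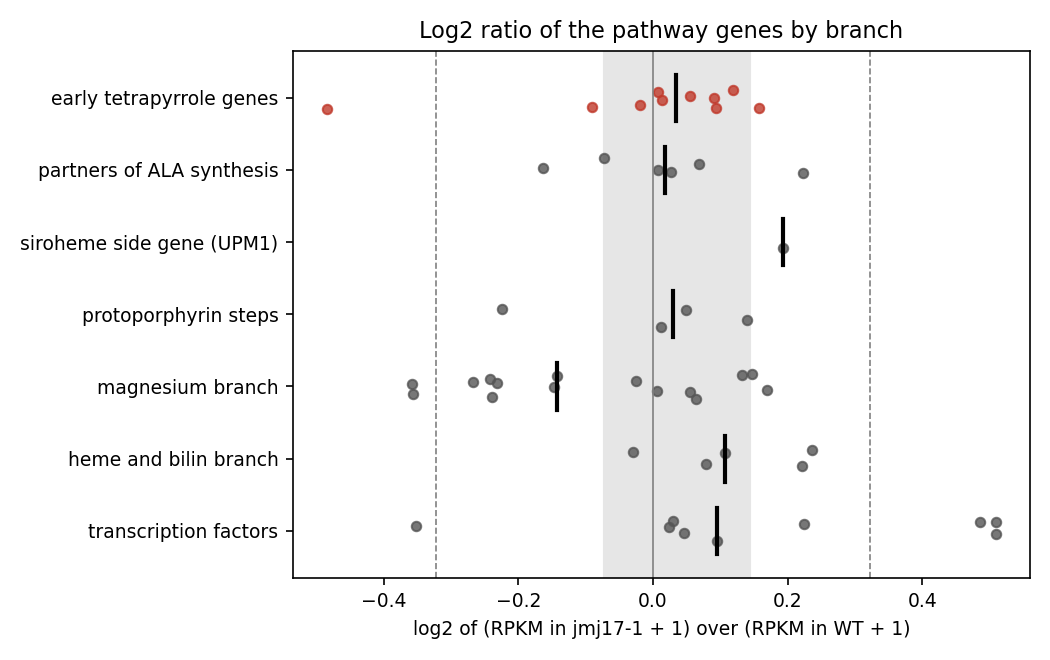
Log2 ratio, jmj17-1 over WT with 1 RPKM added to both, of the early tetrapyrrole genes (red) and of the genes around them (grey) by branch, with the median of each list as a black bar. The grey band holds the middle 50% of all features and dashed lines mark a ratio of 0.8 and its inverse. HEMA1 is the leftmost point, and the magnesium branch has the lowest median, at -0.14.

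In the heme and bilin branch none of the 5 genes that reached 1 RPKM showed a small difference, and the median log2 ratio was 0.11. HY2, which makes the phytochrome chromophore, stood at 16.1 RPKM in jmj17-1 and 13.5 in WT (fold 1.19, 1.11 to 1.28) and overlaps an opposite gene by 101 exonic bases. Heme oxygenase genes lie near 3 of the trunk genes on the same strand in TAIR10.1. HO4 lies 1355 bases from HEMA1 and HO2 lies 786 bases from HEMD, with no protein-coding gene between. HO3 lies 3039 bases from HEMB1, and AT1G69730 on the opposite strand stands between them. HO4 was scarce, at 0.33 RPKM in jmj17-1 and 0.26 in WT from 15 reads in jmj17-1 and 14 in WT, too few to show a difference of the size found in HEMA1. HO3 stood at 0.64 RPKM in jmj17-1 and 0.21 in WT, from about 39 reads in jmj17-1 and 15 in WT (fold 3.05, 1.66 to 6.03). These reads were approximated from the TAIR10.1 length, and HO3 overlaps the opposite AT1G69730 by 16 exonic bases. HO2 stood at 31.7 RPKM in jmj17-1 and 27.0 in WT (fold 1.17, 1.10 to 1.24), while HEMD beside it lay at a fold of 0.938.

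Among 9 transcription factor genes known to act on early tetrapyrrole genes, 3 were higher and 1 was lower by at least a small difference. Of all features 5.77% were higher and 5.69% lower by that size. None of the 9 passed 1.5-fold on the log2 scale used here. The GATA factor genes GNL and GNC, which promote greening, stood at 2.56 and 10.7 RPKM in jmj17-1, against 1.5 and 7.25 in WT. Their folds were 1.71 (1.35 to 2.16) and 1.48 (1.34 to 1.64). The phytochrome-interacting factor genes PIF3 and PIF1, which repress greening in darkness, are named here after their values were seen. PIF3 stood at 10.6 RPKM in jmj17-1 and 7.25 in WT, and PIF1, which overlaps an opposite gene by 134 exonic bases, at 12.3 RPKM in jmj17-1 and 15.9 in WT. The other 5 genes, HY5, GLK1, GLK2, FHY3 and FAR1, had log2 ratios between 0.02 and 0.22.

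The 250 bases upstream of each annotated gene start in TAIR10.1 were searched on both strands for 5 motifs of light and clock regulation. CACGTG, the G-box, was found upstream of HEMD, in 1 of the 10 windows, and in 6.49% of 27443 nuclear promoters. CCAATC, a motif of GLK targets, was found upstream of GSA2, and in 10.2% of promoters. CACGCGC, AAAATATCT and GATAAG were in none of the 10 windows and in 1.06%, 2.36% and 12.3% of promoters. The HEMA1 window held none of the 5 motifs, which says only that these letters are not in this window.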

How the data were processed

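RNA sequencing values of 1 jmj17-1 and 1 WT library were used. The values are RPKM, which the authors deposited as a table of both libraries. The submitters' processing notes name TAIR10 as a genome build. The sources used here name no aligner or counter and give no read length, feature lengths or strand setting. The deposited Z score equals, for all 26743 rows within 1e-06, that of 2 proportions with RPKM entered as counts, and the deposited p-value is unadjusted, per the file headers and values. The members and lists were chosen with earlier results of these data known.

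Where reads were counted whole, ratios between the libraries are ratios of whole reads times a depth ratio. Continued fractions (relative tolerance 2e-13) gave both depths, and whole reads at whole lengths from 20% shorter to 25% longer than the TAIR10.1 exonic length for 64.3% of 18681 annotated features analysed. The share was 35.4% for genes that overlap another and 78.0% for the rest. Elsewhere reads were approximated from TAIR10.1 lengths. Features with a mean of at least 1 RPKM were analysed, with a pseudocount of 1. Fold intervals are exact Clopper-Pearson 95% intervals of the share of reads, for counting error only. The named genes were the 10 members, JMJ17, the 2 largest absolute log2 ratios of each list, all past 1.5-fold and the neighbouring heme oxygenase genes. HEMA3, HEMB2, HO3, CRD1, PORB, CHLP and the tissue and seed markers fall outside that rule and were named after their values were seen. The same holds for the transcription factors other than GNL and GNC. With 2 libraries no gene was named for a like pattern. Transcript identity came from BLAST+ 2.17.0, and scripts ran in Python 3.11.15 with scipy 1.17.1. They were tested on simulated whole reads at TAIR10.1 exonic lengths. That test does not cover features that gave no whole reads or whose recovered length differed from TAIR10.1.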

Additional observations from a re-analysis of the deposited data

How the results depend on the processing

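Over 8 alternatives (a pseudocount of 0.1 or 5 RPKM, 4 other scalings, no filter on low values and a mean of at least 10 RPKM) the counts past 2-fold, 1.5-fold and a ratio of 0.8 or its inverse stayed at 0, 0 and 1. The log2 ratio of HEMA1 ranged from -0.53 with the median of all features set to 0 to -0.47 with a pseudocount of 5 RPKM. HEMB1 and HEME1 turned below 0 with that median set to 0, to -0.03 each, as they did when rescaled without the 100 most abundant features or by quantile normalization, so that 5 of the 10 genes then lay above 0. The median of the 10 was -0.0081 with the median of all features set to 0. With that setting the log2 ratios of GSA1, HEMC and HEME2 were 0.08, 0.05 and 0.05, against 0.12, 0.09 and 0.09 as deposited. Under quantile normalization the summed RPKM of the 10 genes had a ratio of 0.988, against 1.01 as deposited. Without HEMA1 the ratio was 1.02, against 1.05 as deposited, and the cause of these shifts was not tested. No paired analysis was possible because each genotype has 1 library. No replicate could be left out. Depth limits HEMA3, HEMB2, HO3 and HO4, which had at most 79 reads in a library.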
